A study of Homo sapiens
Mus musculus with 25 samples.

Results

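The genes described here are 51 genes of the cell cycle and of DNA replication, chosen by name from the 38128 genes of a count table of HT29 xenograft tumours. HT29 is an established human colorectal cancer cell line, and its cells formed subcutaneous tumours in nude mice, all of which drank water with doxycycline. The 25 tumours comprised 5 WT tumours, 5 tumours of PTPRK KO cells expressing tGFP (PTPRK KO tumours), 6 of PTPRK KO cells re-expressing PTPRK (PTPRK tumours), 4 re-expressing PTPRK.R1095Q (PTPRK.RQ tumours) and 5 re-expressing PTPRK.C1089S. PTPRK is a receptor protein tyrosine phosphatase that is described as a tumour suppressor of the colon, and both mutants change a residue of its catalytic domain. The knockout was made with CRISPR guides against the first exons of PTPRK in a sorted pool of cells. Reintroduced PTPRK and PTPRK.RQ came from doxycycline-inducible lentiviral vectors with tGFP as reporter. The study does not describe PTPRK.C1089S tumours, so the vector, mice and doxycycline of that group are assumed here to match the other groups. The comparisons ask whether loss or return of PTPRK in these tumours is accompanied by a change in proliferation mRNAs. The study describes a single injected cell line for each genotype it reports, so genotype and derived line cannot be told apart. No vector is listed for the WT cells, so PTPRK KO and WT tumours may also differ in the tGFP vector.

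A dividing cell passes from G1 into S phase when cyclin E and the E2F transcription factors start a programme of replication genes. The licensing factors CDC6 and CDT1 load the MCM helicase onto origins, CDC45 and the GINS complex activate it, and PCNA, FEN1 and the enzymes of nucleotide synthesis serve the moving fork. MYBL2 and FOXM1 then drive the genes of G2 and mitosis, among them the mitotic cyclins, the Aurora and Polo-like kinases, kinetochore and spindle proteins, and CDC20, the activator of the ubiquitin ligase that starts anaphase. Because these mRNAs rise and fall within each cycle, their level in a bulk tumour depends on how many cells are cycling, and fewer cycling cells cannot be told apart from less of these mRNAs per cell.

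Library totals ranged from 43727372 to 59355464 counts, and the members together took 0.366 to 0.496% of the counts of a tumour. The lowest count of any member in any tumour was 363, and all 51 members passed the filter on low counts. Levels are given as CPM (counts scaled to a common library size), and differences as log2 fold changes ± SE from the fit across all tested genes. PTPRK itself was at 315 ± 13.2 CPM in WT tumours (SD, n = 5) and 45.2 ± 19.2 CPM in PTPRK KO tumours (SD, n = 5), and at 1318 to 2275 CPM in PTPRK, 971 to 1709 CPM in PTPRK.RQ and 1138 to 1774 CPM in PTPRK.C1089S tumours. Of 25 marker genes of host fibroblasts, vessels and immune cells, 13 were below 0.5 CPM in every tumour, among them COL1A2, COL3A1, KDR and PTPRC. The counts are of reads aligned to the human genome, whereas the host is a mouse. Levels of these markers are therefore no direct measure of host cells. Whether their reads came from HT29 cells or from mouse reads that also align to GRCh38 was not tested. The summed level of the markers other than LYZ, which dominated the list, ranged from 78.4 to 112.7 CPM, with PTPRK KO tumours at 78.4 to 100.7 CPM and PTPRK.C1089S tumours at 103.5 to 110.4 CPM. The 12 colon carcinoma markers, among them EPCAM and the keratins, summed to 13508 to 19988 CPM. In PTPRK KO against WT, 0 of these 12 had a log2 fold change above 0, beside 51.3% of all genes, and 1 was called, VIL1 at -0.24 ± 0.06, beside 2.64% of all genes. Against PTPRK KO, 2 were called higher and 1 lower in PTPRK, 1 higher and 0 lower in PTPRK.RQ, and 2 higher and 2 lower in PTPRK.C1089S tumours. Of all genes, 27.8, 21.8 and 16.6% were called in these comparisons. Against WT, 1 was called higher and 2 lower in PTPRK, 0 higher and 4 lower in PTPRK.RQ, and 1 higher and 5 lower in PTPRK.C1089S tumours. The shares of all genes called there were 32.9, 28.3 and 14.9%. Of the host markers tested, 2 of 13 were called higher and 1 lower in PTPRK against PTPRK KO, and the counts were the same for PTPRK.RQ. In PTPRK.C1089S against PTPRK KO 2 of 15 were called higher and 0 lower. The shares of all genes called in these comparisons are those given above for the carcinoma markers. PECAM1, an endothelial marker at 0.53 to 6.52 CPM, was higher in each (log2 fold changes 1.98 ± 0.42, 2.02 ± 0.44 and 1.43 ± 0.40). The other endothelial markers of the list, VWF, CDH5, KDR and CLDN5, were below 0.5 CPM in every tumour. The part of both marker lists in the results below was not tested.

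Averaged over the 51 members, log2 CPM relative to the mean of all tumours was -0.01 ± 0.14 in WT, 0.06 ± 0.13 in PTPRK KO, -0.06 ± 0.06 in PTPRK, 0.04 ± 0.11 in PTPRK.RQ and -0.01 ± 0.05 in PTPRK.C1089S tumours (mean ± SD, n = 5, 5, 6, 4 and 5). WT tumours alone spanned -0.16 (replicate 1) to 0.21 (replicate 3), and the ranges of all 5 groups overlapped. WT replicate 3 held the highest value of all tumours for 11 members and PTPRK.RQ replicate 3 for 15, while WT replicate 1 held the lowest for 10. Among group means, the highest lay in PTPRK.RQ for 20 members and in PTPRK KO for 14, and the lowest lay in PTPRK for 24, in WT for 16 and in PTPRK KO for 0. The same counts were not made over all genes, and the members varied together from tumour to tumour, so they are not independent.

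**Figure D1:**
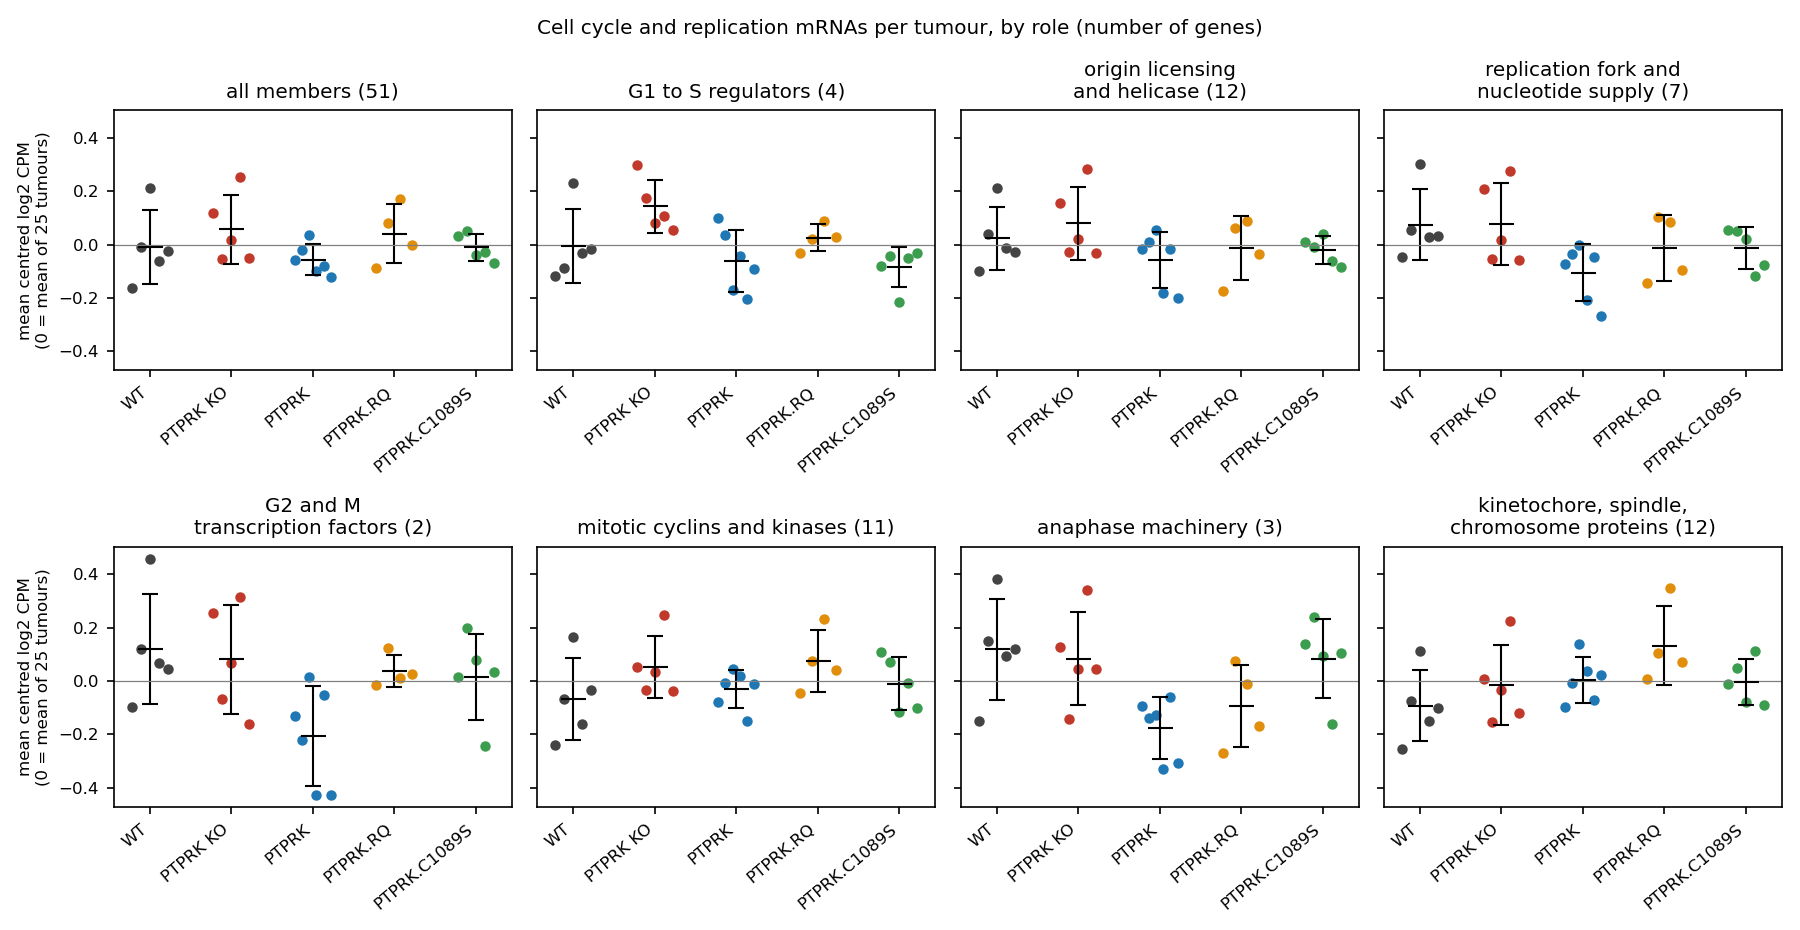
Each point is 1 tumour, plotted as the mean over the genes of a role of log2 CPM centred on the mean of the 25 tumours (y axis), by group (x axis), with the group mean and SD in black. For all 51 members the group means lie between -0.06 and 0.06, within the span of the WT tumours alone, and the kinetochore, spindle and chromosome proteins show the highest mean in PTPRK.RQ tumours (0.13) and the lowest in WT tumours (-0.09).

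MKI67, the gene of the Ki-67 proliferation antigen, was at 155, 227, 250, 217 and 180 CPM in the WT tumours and at 241, 145, 194, 256 and 151 CPM in the PTPRK KO tumours. It was at 176 to 219 CPM in the 6 PTPRK tumours, with a median of 186 CPM, at 207, 233, 252 and 224 CPM in PTPRK.RQ and at 164, 201, 191, 192 and 195 CPM in PTPRK.C1089S tumours. The PTPRK KO tumours covered the whole range of the PTPRK tumours, and the PTPRK.C1089S tumours all lay below the PTPRK.RQ tumours. MKI67 passed the test in none of the 10 comparisons, with a log2 fold change of -0.06 ± 0.15 for PTPRK KO relative to WT. It was at -0.0051 ± 0.15 in PTPRK against PTPRK KO (95% interval -0.30 to 0.29). It was at 0.22 ± 0.16 in PTPRK.RQ tumours relative to PTPRK KO and at -0.06 ± 0.13 in PTPRK.C1089S tumours. The difference of PTPRK.C1089S from PTPRK.RQ was -0.28 ± 0.14 (adjusted p = 0.255). TOP2A (topoisomerase II, which untangles chromosomes), PCNA (the sliding clamp of the replication fork), MCM2 and CCNB1 (cyclin B1) also passed in none of the 10. Under alternatives MCM2 passed in PTPRK against PTPRK KO with all 25 tumours and without PTPRK KO replicate 2, and in PTPRK against WT with all 25 tumours, with only that pair of groups and without WT replicate 1. The narrowest bounds were those of PCNA, at -0.02 ± 0.06 in PTPRK against PTPRK KO with a 95% interval of -0.15 to 0.10. TOP2A was at 0.12 ± 0.10 in that comparison (-0.08 to 0.33), CCNB1 at -0.16 ± 0.10 (-0.35 to 0.03) and MCM2 at -0.23 ± 0.11 (-0.44 to -0.02, adjusted p = 0.112).

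**Figure D2:**
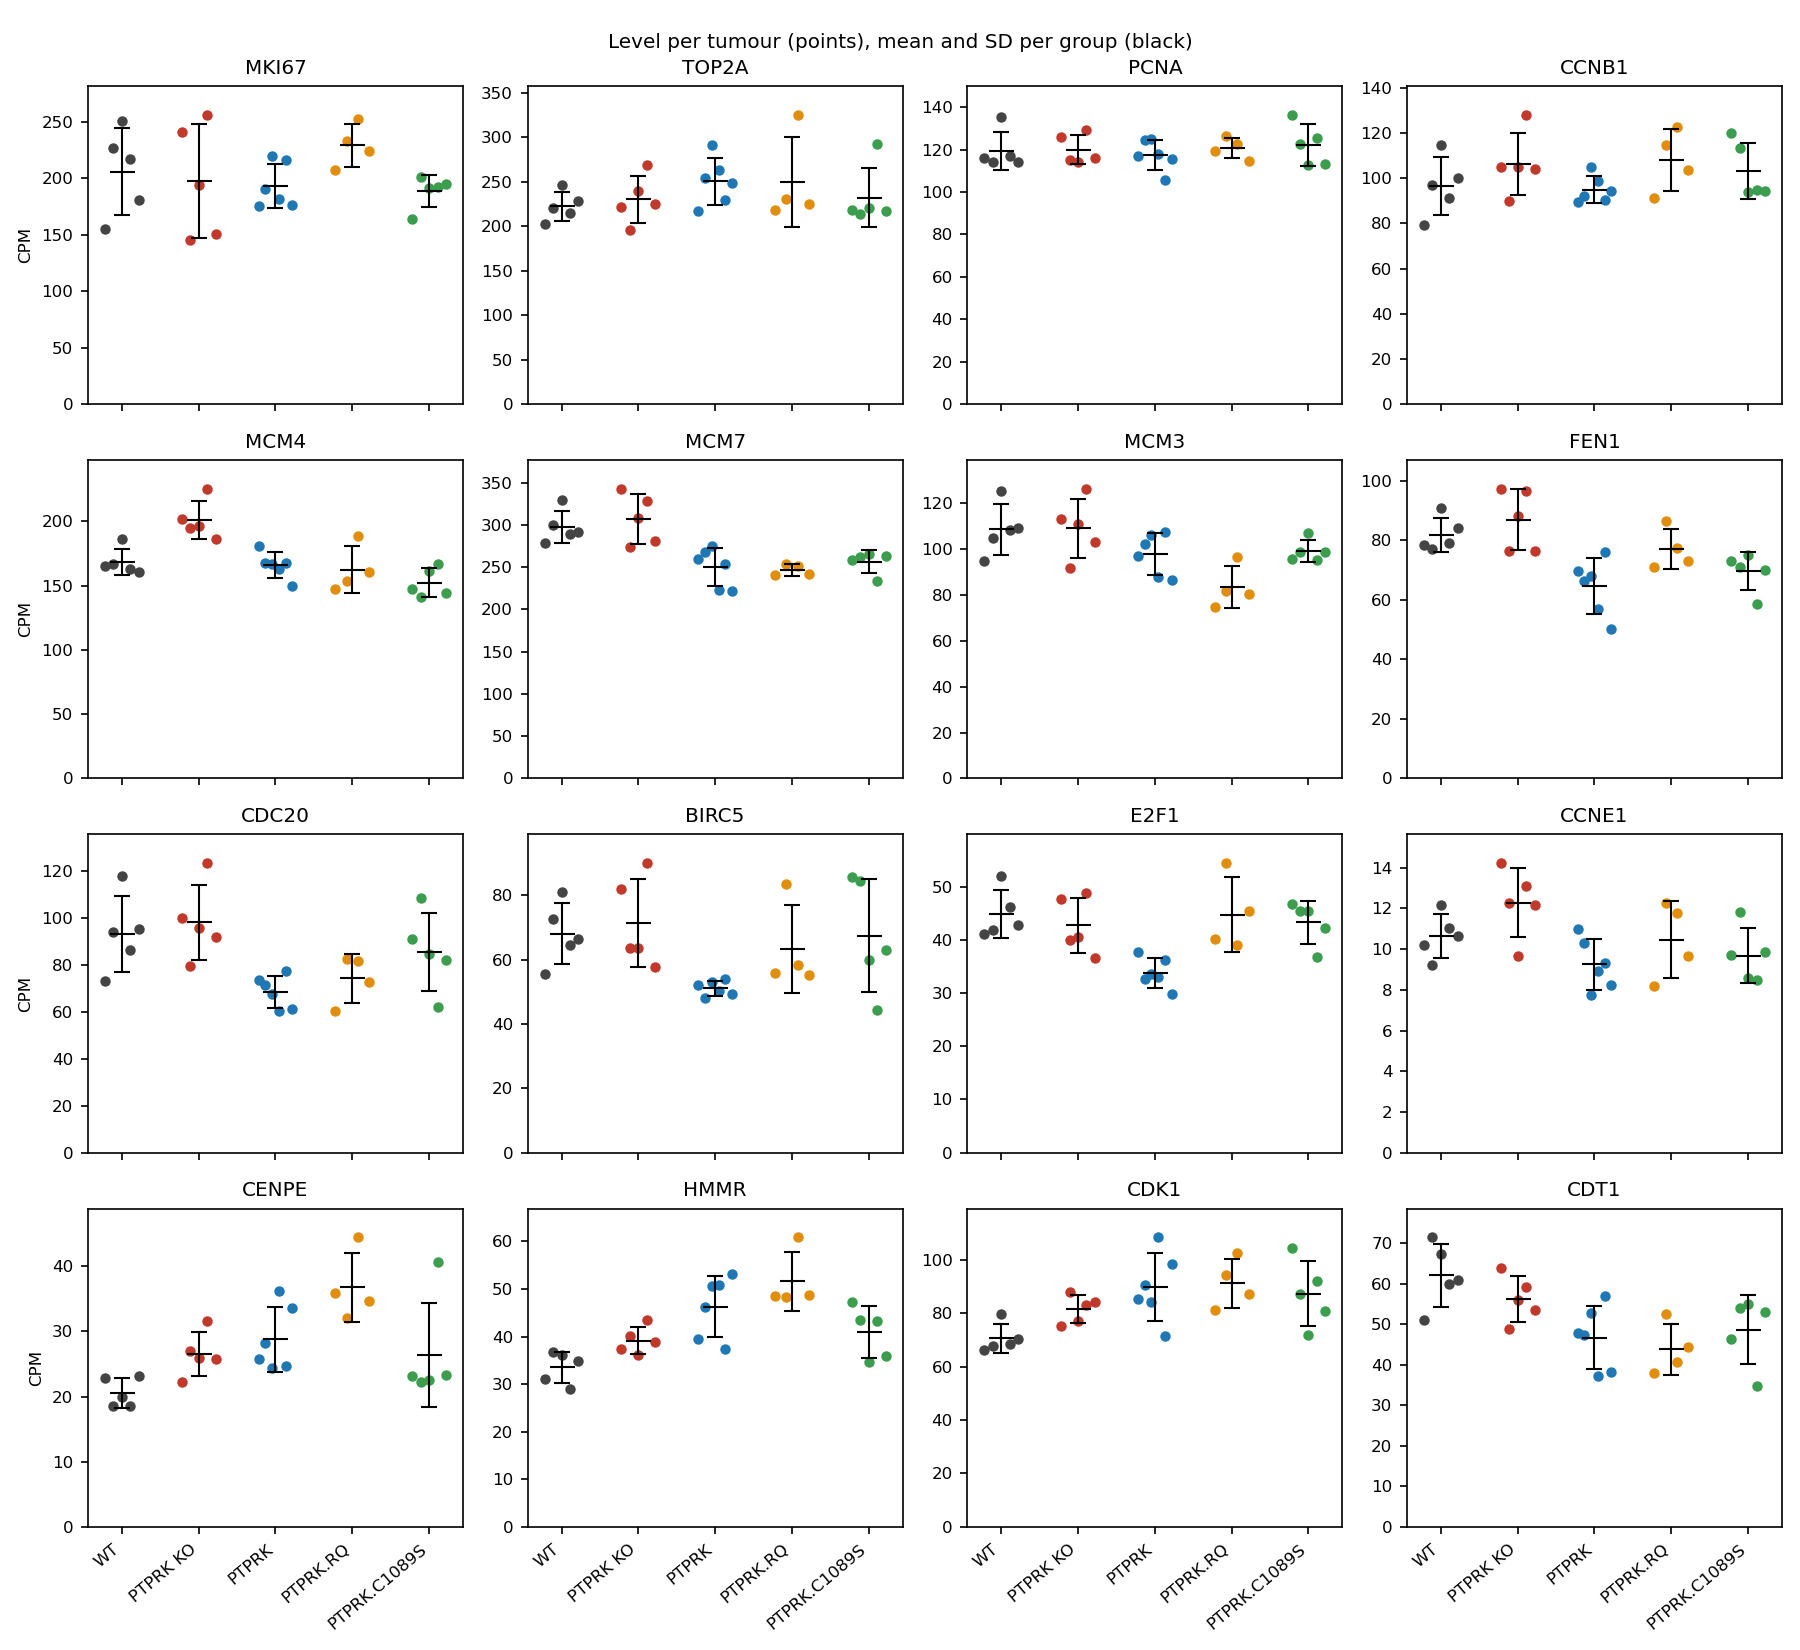
Level in CPM (y axis, starting at 0) of 16 members in each of the 25 tumours (points), by group (x axis), with group mean and SD in black. MKI67, TOP2A, PCNA and CCNB1 overlap between PTPRK KO and PTPRK tumours, whereas MCM4, FEN1, CDC20 and BIRC5 do not.

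Loss of PTPRK was accompanied by a rise of 2 members, CCNE2 and MCM4, and a fall of none. In all, 2.64% of the 18550 genes tested were called in PTPRK KO against WT, 1.08% higher and 1.55% lower, so 2 of 51 members is near the background. CCNE2, one of the E-type cyclins that start S phase, was at 9.43, 9.30, 11.7, 9.19 and 9.96 CPM in WT and at 13.0, 13.0, 12.1, 12.4 and 12.9 CPM in PTPRK KO tumours, without overlap. Its log2 fold change was 0.36 ± 0.10 (adjusted p = 0.0444). MCM4, a subunit of the replicative helicase, rose by 0.26 ± 0.07 (adjusted p = 0.0435). Both calls lay close to the threshold: the count of called members was 0 without PTPRK KO replicate 1, 2, 3 or 4 or WT replicate 1, 2, 4 or 5, and 1 without PTPRK KO replicate 5. Over the fits without 1 tumour, 1.46 to 2.49% of all genes were called. Of the members, 3 did not overlap between the groups and were higher in PTPRK KO (CCNE2, PLK4 and TTK), where 2.87% of all genes did so. Log2 fold changes were above 0 for 38 members, beside 51.3% of all genes, with a median of 0.05 over the members and 0.0054 over all genes. Without PTPRK KO replicate 4 the median over the members was -0.0142, and without WT replicate 3 it was 0.12. CCNE1 was at 0.20 ± 0.12 (adjusted p = 0.432), CCNB1 at 0.14 ± 0.10, TOP2A at 0.05 ± 0.10, PCNA at 0.01 ± 0.06 and MCM2 at -0.03 ± 0.11.

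Return of PTPRK was accompanied by a fall of 9 members and a rise of none. In PTPRK against PTPRK KO, 27.8% of all tested genes were called (13.6% higher and 14.2% lower), so 17.6% of the members is below the background, and their 9 falls compare with 14.2% of all genes. The median log2 fold change was -0.11 over the members and 0.0036 over all genes, with 13 members above 0 beside 50.5% of all genes. The median over the members was -0.06 without PTPRK KO replicate 4. The members that fell were CCNE1 and E2F1 of the G1 to S regulators, MCM4 and MCM7 of the helicase, FEN1 and TK1 of the fork and of nucleotide supply, the transcription factor MYBL2, CDC20 of the anaphase machinery and BIRC5. None of the 11 mitotic cyclins and kinases passed, and 1 of the 12 kinetochore, spindle and chromosome proteins did, although the median of the mitotic cyclins and kinases was -0.16 and that of the kinetochore, spindle and chromosome proteins was 0.07. Without PTPRK KO replicate 1, 5 members were called beside 20% of all genes.

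CDC20 was at 99.9, 79.8, 95.9, 123 and 91.8 CPM in the PTPRK KO tumours and at 60.5 to 77.5 CPM, with a median of 69.7 CPM, in the 6 PTPRK tumours. All PTPRK tumours were below all PTPRK KO tumours, and CDC20 fell by 0.48 on the log2 scale (SE 0.12, adjusted p = 0.00485). BIRC5 encodes survivin, a subunit of the chromosomal passenger complex. BIRC5 was at 81.9, 63.6, 63.8, 89.9 and 57.8 CPM in PTPRK KO and at 48.1 to 54.0 CPM in PTPRK tumours, again without overlap, and fell by 0.47 (SE 0.13, adjusted p = 0.00833). FEN1, the nuclease that trims Okazaki fragments, was at 97.2, 76.5, 88.1, 96.6 and 76.4 CPM in PTPRK KO tumours and at 50.3 to 76.2 CPM in PTPRK tumours, so that the groups were adjacent but did not overlap. FEN1 fell by 0.37 (SE 0.08, adjusted p = 0.00287). In total 4 members were lower in all PTPRK tumours (MCM4, FEN1, CDC20 and BIRC5), beside 8.36% of all genes, a share counted without PTPRK replicate 6.

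CCNE1 (cyclin E1) overlapped between the groups, at 9.65 to 14.2 CPM in PTPRK KO and 7.73 to 11.01 CPM in PTPRK tumours, and fell by 0.38 (SE 0.12, adjusted p = 0.0248). Its call was lost without PTPRK KO replicate 1 or 4 or PTPRK replicate 3 or 4. E2F1, an activating E2F, was at 36.7 to 48.8 CPM in PTPRK KO and 29.8 to 37.7 CPM in PTPRK tumours and fell by 0.30 (SE 0.09, adjusted p = 0.0203), a call that was lost without PTPRK KO replicate 1 or 4. TK1, thymidine kinase of the salvage pathway, fell by 0.31 ± 0.10 and was not called without PTPRK KO replicate 1 or 4 or PTPRK replicate 4. MYBL2 fell by 0.30 ± 0.11 (adjusted p = 0.0418) and was called in 7 of 16 alternatives, among which its adjusted p reached 0.127 (not called without PTPRK KO replicate 1, 3 or 4 or PTPRK replicate 1, 2 or 4). The calls of MCM4, MCM7, FEN1, CDC20 and BIRC5 were held in all 16.

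**Figure D3:**
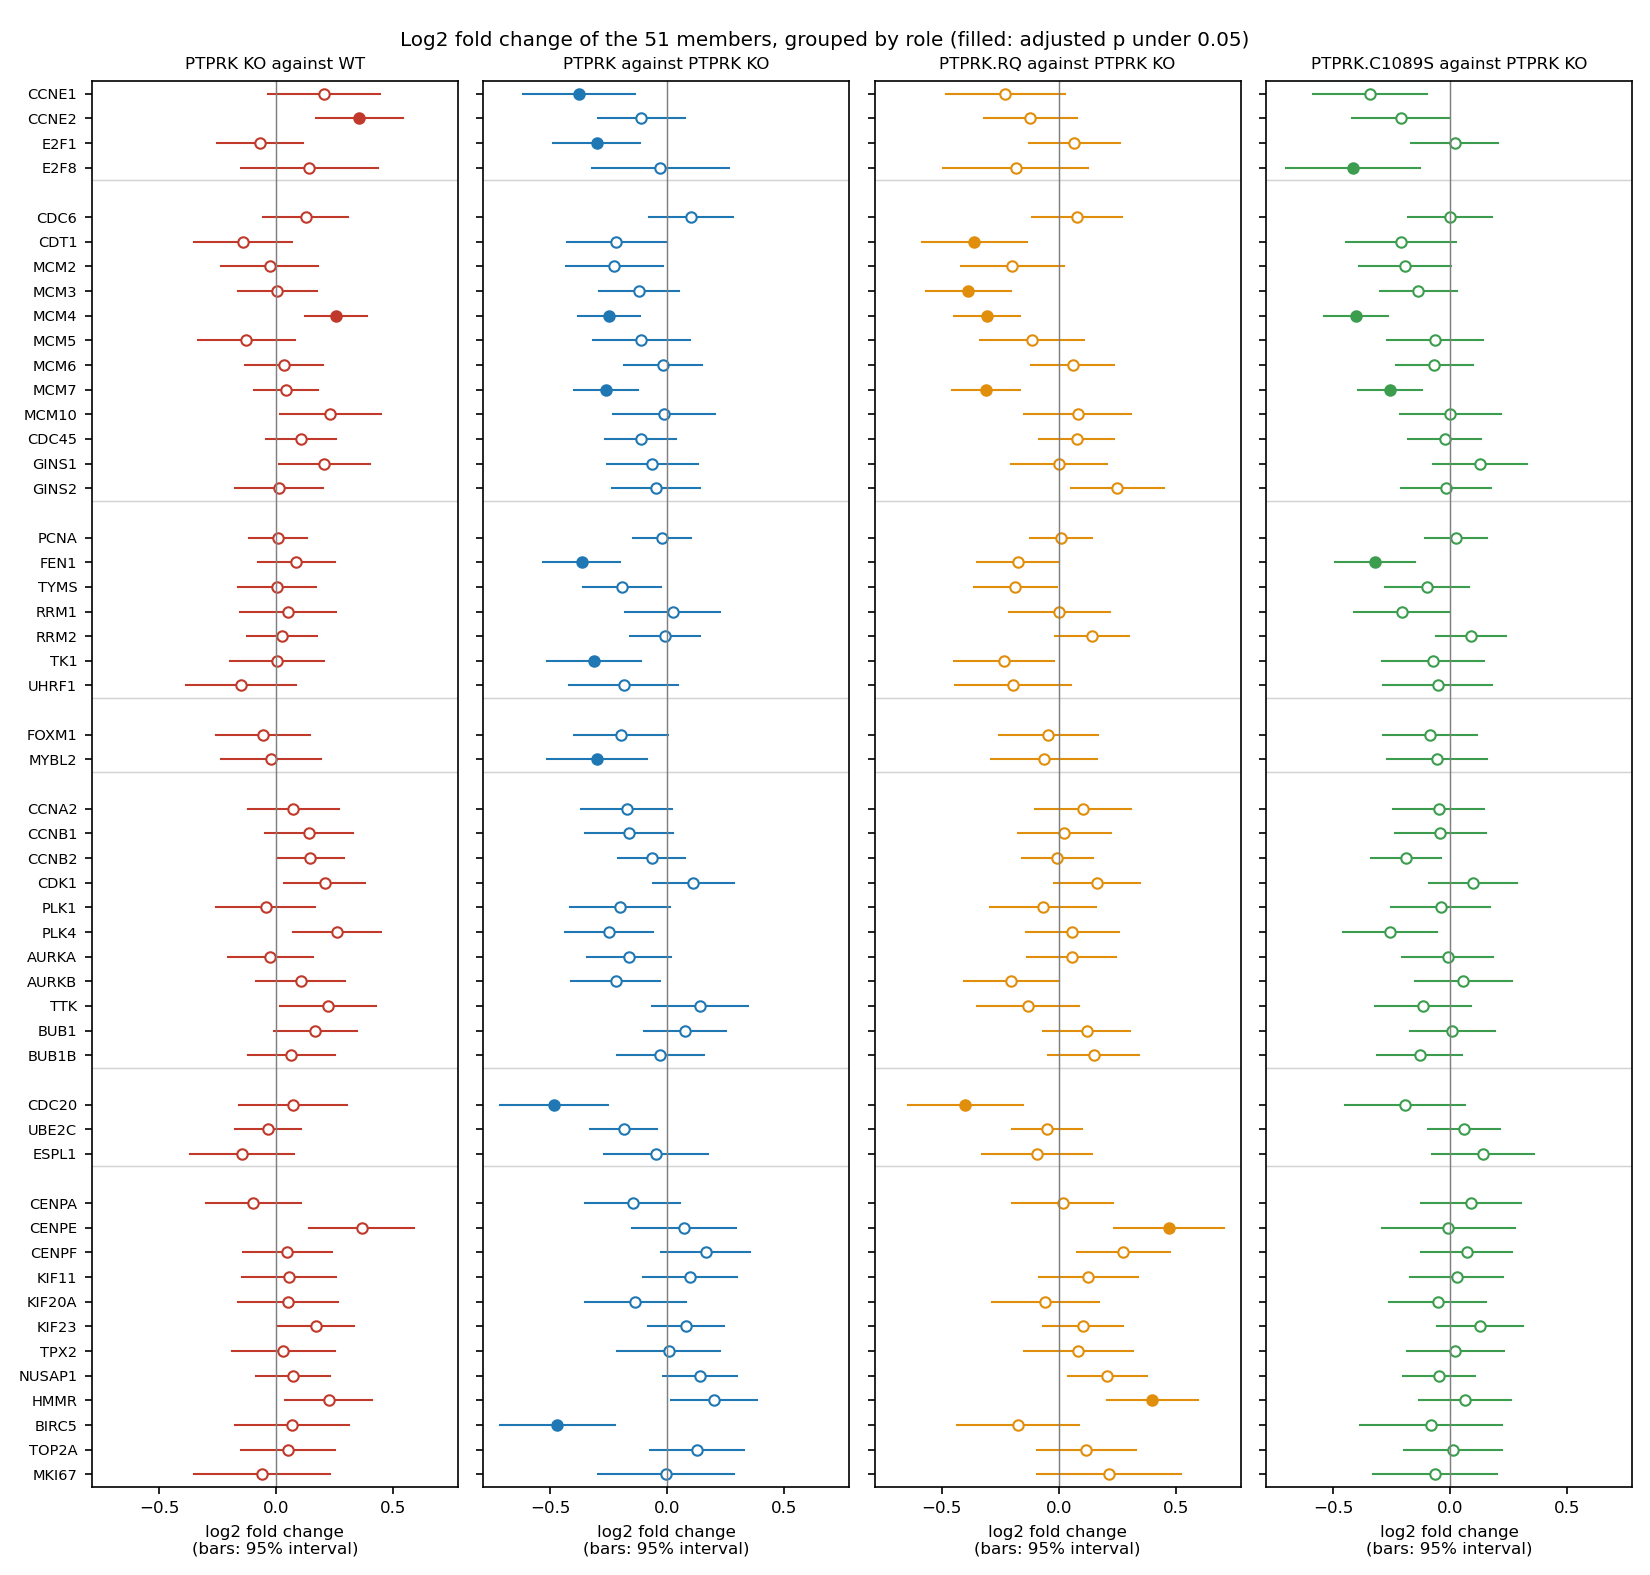
Log2 fold change (x axis) with its 95% interval for the 51 members (y axis, by role from the G1 to S regulators at the top to the kinetochore, spindle and chromosome proteins at the bottom) in 4 comparisons. Filled points passed the test, 2 in PTPRK KO against WT, 9 in PTPRK, 7 in PTPRK.RQ and 4 in PTPRK.C1089S against PTPRK KO.

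In PTPRK.RQ against PTPRK KO 2 members rose and 5 fell, where 21.8% of all genes were called (10.7% higher and 11.1% lower). The falls lay mostly in origin licensing, with MCM3, MCM4 and MCM7 of the helicase and CDT1, which loads it, beside CDC20, and the rises were in HMMR and CENPE. MCM3 was at 113, 91.8, 111, 126 and 103 CPM in PTPRK KO and at 74.9, 81.7, 96.5 and 80.4 CPM in PTPRK.RQ tumours. Only PTPRK.RQ replicate 3 reached the PTPRK KO range, and MCM3 fell by 0.39 (SE 0.09, adjusted p = 0.00438). CDT1 fell by 0.36 ± 0.12 (adjusted p = 0.0278), a call lost without PTPRK KO replicate 1 or PTPRK.RQ replicate 1, 3 or 4. CDC20 fell by 0.40 ± 0.13 (adjusted p = 0.027), a call lost without PTPRK KO replicate 4 or PTPRK.RQ replicate 1 or 4.

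CENPE, the kinesin that carries chromosomes to the spindle equator, was at 22.2, 27.1, 25.9, 31.7 and 25.8 CPM in PTPRK KO and at 35.9, 32.0, 44.4 and 34.7 CPM in PTPRK.RQ tumours. The groups did not overlap, and the log2 fold change of CENPE was 0.47 ± 0.12 (adjusted p = 0.00673). HMMR, a hyaluronan receptor that also binds the mitotic spindle, was at 37.3, 40.1, 36.1, 43.4 and 38.8 CPM in PTPRK KO and at 48.4, 48.4, 60.8 and 48.7 CPM in PTPRK.RQ tumours, without overlap, and rose by 0.40 ± 0.10 (adjusted p = 0.00568). These 2 were the members that were higher in all PTPRK.RQ tumours, beside 7.41% of all genes, and MCM7 was the 1 member that was lower in all of them, beside 8.09%. Over the 51 members the median log2 fold change was 0.0018, with 27 above 0 (all genes 0.0261, and 53.6% above 0), and without 1 tumour it lay between -0.04 (without PTPRK.RQ replicate 3) and 0.06 (without PTPRK KO replicate 4). CCNE1 was at -0.23 ± 0.13, MCM2 at -0.20 ± 0.11, TOP2A at 0.12 ± 0.11, CCNB1 at 0.02 ± 0.10 and PCNA at 0.01 ± 0.07.

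In PTPRK.C1089S against PTPRK KO 4 members fell and none rose, where 16.6% of 18758 genes were called (9.09% higher and 7.53% lower). They were MCM4 and MCM7, FEN1, and E2F8, a repressive E2F. MCM4 was at 202, 195, 196, 225 and 186 CPM in PTPRK KO and at 147, 141, 161, 167 and 144 CPM in PTPRK.C1089S tumours, without overlap, and fell by 0.40 (SE 0.07, adjusted p = 0.000185). FEN1 fell by 0.32 ± 0.09 (adjusted p = 0.00983). E2F8 fell by 0.42 ± 0.15 (adjusted p = 0.0491), a value at the threshold that was called in 6 of 16 alternatives and not without PTPRK KO replicate 1, 2 or 3 or PTPRK.C1089S replicate 1, 2, 3 or 5. Without PTPRK KO replicate 1 the count was 2, beside 12.3% of all genes, and the adjusted p of MCM7 was then 0.0511. Of the members, 3 (MCM4, MCM7 and FEN1) were lower in all PTPRK.C1089S tumours, beside 4.76% of all genes, and 16 had a log2 fold change above 0, beside 49.4%. CCNE1 was at -0.34 ± 0.12 (adjusted p = 0.0589, past the threshold with DESeq2 and without PTPRK KO replicate 3 or PTPRK.C1089S replicate 2), MCM2 at -0.19 ± 0.10, CCNB1 at -0.04 ± 0.10, PCNA at 0.02 ± 0.07 and TOP2A at 0.01 ± 0.11. Of 15 tested host markers, 13 were above 0 in this comparison.

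MCM4 and MCM7, both subunits of the MCM helicase, were the members that fell against PTPRK KO in each of the 3 re-expression groups, which share the PTPRK KO tumours as control. MCM7 was at 342, 273, 308, 329 and 281 CPM in PTPRK KO tumours. It was at 221 to 275 CPM, with a median of 257 CPM, in PTPRK, at 240, 254, 251 and 241 CPM in PTPRK.RQ and at 258, 262, 266, 234 and 264 CPM in PTPRK.C1089S tumours, so that 1 PTPRK tumour reached the lowest PTPRK KO tumour. MCM7 fell by 0.26 (SE 0.07, adjusted p = 0.00757) in PTPRK, by 0.31 (SE 0.07, adjusted p = 0.0039) in PTPRK.RQ and by 0.26 (SE 0.07, adjusted p = 0.00977) in PTPRK.C1089S against PTPRK KO. MCM4 fell by 0.25 (SE 0.07) in PTPRK and by 0.31 (SE 0.07) in PTPRK.RQ tumours. The other helicase subunits were not called in PTPRK or PTPRK.C1089S against PTPRK KO, with MCM6 at -0.02 ± 0.09 and MCM5 at -0.11 ± 0.11 in PTPRK tumours. MCM2 lay nearer to MCM4 and MCM7, at -0.23 in PTPRK tumours (adjusted p = 0.112, called in 2 of 16 alternatives). In PTPRK.C1089S tumours MCM2 was at -0.19 (adjusted p = 0.214). CDC20 fell in PTPRK and PTPRK.RQ tumours, and FEN1 in PTPRK and PTPRK.C1089S tumours.

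Between the 3 re-expressed forms, E2F1 and UBE2C were the members that passed the test. In PTPRK.RQ against PTPRK 1 member was called, beside 3.74% of all genes (1.7% higher and 2.04% lower), in PTPRK.C1089S against PTPRK 2, beside 8.69% (4.7% higher and 3.99% lower), and in PTPRK.C1089S against PTPRK.RQ 0, beside 5.16% (2.92% higher and 2.24% lower). E2F1 was at 29.8 to 37.7 CPM in the PTPRK tumours, with a median of 33.3 CPM, at 40.3, 54.4, 39.0 and 45.4 CPM in PTPRK.RQ and at 46.9, 45.5, 45.4, 36.8 and 42.2 CPM in PTPRK.C1089S tumours. All PTPRK.RQ and 4 of the 5 PTPRK.C1089S tumours were above all PTPRK tumours. E2F1 was higher by 0.37 ± 0.10 in PTPRK.RQ (adjusted p = 0.0378) and by 0.32 ± 0.10 in PTPRK.C1089S (adjusted p = 0.0348) than in PTPRK tumours. Its first call was lost without PTPRK replicate 2, 3 or 4 or PTPRK.RQ replicate 2 or 4, and its second without PTPRK replicate 2, 3 or 4 or PTPRK.C1089S replicate 1, 2, 3 or 5. UBE2C, the ubiquitin-conjugating enzyme that works with the anaphase ligase, was higher by 0.25 ± 0.08 in PTPRK.C1089S than in PTPRK tumours (adjusted p = 0.0469) and was called in 7 of 16 alternatives, but not without PTPRK.C1089S replicate 1, 2, 3 or 5 or PTPRK replicate 1, 2 or 4.

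In PTPRK.RQ against PTPRK 3 members did not overlap and were higher (E2F1, GINS2 and BIRC5), beside 3.12% of all genes, and MKI67 was at 0.22 ± 0.16, CCNE1 at 0.15 ± 0.13, CCNB1 at 0.19 ± 0.10, PCNA at 0.03 ± 0.07, MCM2 at 0.03 ± 0.11 and TOP2A at -0.01 ± 0.11. The count there was 0 without PTPRK replicate 2 or 3 or PTPRK.RQ replicate 4, and 2 without PTPRK replicate 4 or 5 or PTPRK.RQ replicate 2 or 3, beside 1.94 to 4.45% of all genes over the fits without 1 tumour. In PTPRK.C1089S against PTPRK it was 0 without PTPRK.C1089S replicate 1, 2, 3 or 5 or PTPRK replicate 2 or 4, 1 without PTPRK replicate 1 or 3, 5 without PTPRK replicate 5 (beside 15.2% of all genes) and 11 without PTPRK.C1089S replicate 4 (beside 23.4%). In that comparison CCNB1 was at 0.12 ± 0.10, TOP2A at -0.11 ± 0.11, MKI67 at -0.06 ± 0.13, PCNA at 0.05 ± 0.07, CCNE1 at 0.04 ± 0.12 and MCM2 at 0.03 ± 0.10. In PTPRK.C1089S against PTPRK.RQ the edgeR quasi-likelihood test called 0 members, and DESeq2 called 2, beside 8.31% of all genes. BUB1B, HMMR and MKI67 were lower in all PTPRK.C1089S than in all PTPRK.RQ tumours, beside 2.76% of all genes, with HMMR at -0.34 ± 0.11 (adjusted p = 0.0604). The count rose to 6, beside 13.3%, without PTPRK.C1089S replicate 4 and to 3, beside 9.85%, without PTPRK.RQ replicate 2. It was 1 without PTPRK.C1089S replicate 1 (3.02% of all genes) or PTPRK.RQ replicate 3 (2.38%). CCNE1 was at -0.11 ± 0.13, TOP2A at -0.10 ± 0.11, CCNB1 at -0.07 ± 0.11, PCNA at 0.02 ± 0.07 and MCM2 at 0.01 ± 0.11.

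Against WT tumours the re-expression groups had called members in both directions. In PTPRK against WT 7 members were higher and 10 lower, where 32.9% of all genes were called (16.1% higher and 16.8% lower). The 7 were CENPE, HMMR, the checkpoint kinases TTK and BUB1, CDK1, KIF23 and NUSAP1, and the 10 were CDC20, UBE2C, BIRC5, E2F1, CDT1, MCM7, FEN1, TK1, UHRF1 and MYBL2. CENPE was higher by 0.44 ± 0.11 (adjusted p = 0.006), HMMR by 0.42 ± 0.09 (adjusted p = 0.00194) and TTK by 0.36 ± 0.10 (adjusted p = 0.0108). CDC20 was at -0.41 ± 0.12 (adjusted p = 0.0109), BIRC5 at -0.40 ± 0.13 (adjusted p = 0.018, lost without WT replicate 3) and E2F1 at -0.37 ± 0.09 (adjusted p = 0.00494). MCM2 was at -0.26 ± 0.11, TOP2A at 0.17 ± 0.10, CCNE1 at -0.17 ± 0.12, MKI67 at -0.07 ± 0.15, CCNB1 at -0.02 ± 0.10 and PCNA at -0.01 ± 0.06. Without PTPRK replicate 4, 8 members were called, beside 23.9% of all genes, and CDT1, MCM7, FEN1, TK1, UHRF1, MYBL2, BUB1, UBE2C and NUSAP1 were not. The calls of MCM7, TK1, UHRF1, MYBL2 and UBE2C were also lost without WT replicate 3. UHRF1, BUB1, KIF23 and NUSAP1 each lost the call without PTPRK replicate 2 or 3 or WT replicate 2, among others.

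In PTPRK.RQ against WT 9 members were higher and 4 lower, where 28.3% of all genes were called (14.2% higher and 14.1% lower). CENPE was at 22.9, 18.5, 19.9, 18.6 and 23.2 CPM in the WT tumours and at 32.0 CPM or more in every PTPRK.RQ tumour. Its difference of 0.84 ± 0.12 (adjusted p = 5.31e-05) was the largest of any member in any of the 10 comparisons. HMMR was higher by 0.62 ± 0.10 (adjusted p = 0.000139) and CDK1, the kinase that drives entry into mitosis, by 0.37 ± 0.09 (adjusted p = 0.00552). PLK4, CENPF, MCM10, BUB1, NUSAP1 and KIF23 were higher by 0.27 to 0.32, and MCM10 was called in 3 of 15 alternatives. None of these 6 was called without PTPRK.RQ replicate 3, and PLK4, MCM10, BUB1, NUSAP1 and KIF23 were not called without WT replicate 2. CDT1 was at -0.50 ± 0.12 (adjusted p = 0.00308), MCM3 at -0.38 ± 0.09 (adjusted p = 0.00456), MCM7 at -0.27 ± 0.07 and UHRF1, which couples replication to maintenance of DNA methylation, at -0.35 ± 0.13 (adjusted p = 0.0463, called in 6 of 15 alternatives and not without PTPRK.RQ replicate 1, 3 or 4 or WT replicate 2, 3 or 4). The count was 6 without PTPRK.RQ replicate 3 (19.3% of all genes), 8 without PTPRK.RQ replicate 4 (21.3%) and 7 without WT replicate 2 (22.7%). MCM2 was at -0.23 ± 0.11, CCNB1 at 0.17 ± 0.10, TOP2A at 0.17 ± 0.11, MKI67 at 0.15 ± 0.16, CCNE1 at -0.02 ± 0.13 and PCNA at 0.02 ± 0.07.

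In PTPRK.C1089S against WT 3 members were higher and 2 lower, where 14.9% of all genes were called (7.69% higher and 7.24% lower). GINS1 was higher by 0.33 ± 0.10 (adjusted p = 0.0286), CDK1 by 0.31 ± 0.10 (adjusted p = 0.0314) and KIF23, a kinesin of the central spindle, by 0.30 ± 0.09 (adjusted p = 0.0327). CDT1 was at -0.35 ± 0.12 (adjusted p = 0.0478) and MCM7 at -0.21 ± 0.07 (adjusted p = 0.0352). All 5 calls were lost without PTPRK.C1089S replicate 1, and the count was 1 without PTPRK.C1089S replicate 4 or WT replicate 2, 4 or 5, 2 without WT replicate 1 and 3 without WT replicate 3. The share of all genes called ran from 9.32 to 14.7% over the fits without 1 tumour. MCM2 was at -0.22 ± 0.10, CCNE1 at -0.14 ± 0.12, MKI67 at -0.13 ± 0.13, CCNB1 at 0.10 ± 0.10, TOP2A at 0.06 ± 0.11 and PCNA at 0.03 ± 0.07.

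Changes of neighbouring genes on the chromosome moved with those of some members. For each member the median log2 fold change of the 50 nearest tested genes on its chromosome was taken. MCM4 had neighbour medians of 0.29 in PTPRK KO against WT and of -0.31, -0.53 and -0.49 in PTPRK, PTPRK.RQ and PTPRK.C1089S against PTPRK KO, as large as or larger than the changes of MCM4 itself. CCNE2, on the same chromosome, had a neighbour median of 0.21 beside its own 0.36 in PTPRK KO against WT, and FEN1 had -0.21 beside -0.37 in PTPRK against PTPRK KO. By contrast the neighbour medians were -0.04 for CDC20 and -0.13 for BIRC5 in PTPRK against PTPRK KO, -0.03 for MCM3 in PTPRK.RQ against PTPRK KO and -0.03 for E2F1 in PTPRK.RQ against PTPRK. For MCM7 they were -0.11, -0.17 and -0.02 in PTPRK, PTPRK.RQ and PTPRK.C1089S against PTPRK KO. Across the 51 members, which share libraries and in part chromosomes and are not independent, Pearson's r between own change and neighbour median ranged from 0.429 to 0.716 over the 10 comparisons. The part of copy number in these values was not tested.

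**Figure D4:**
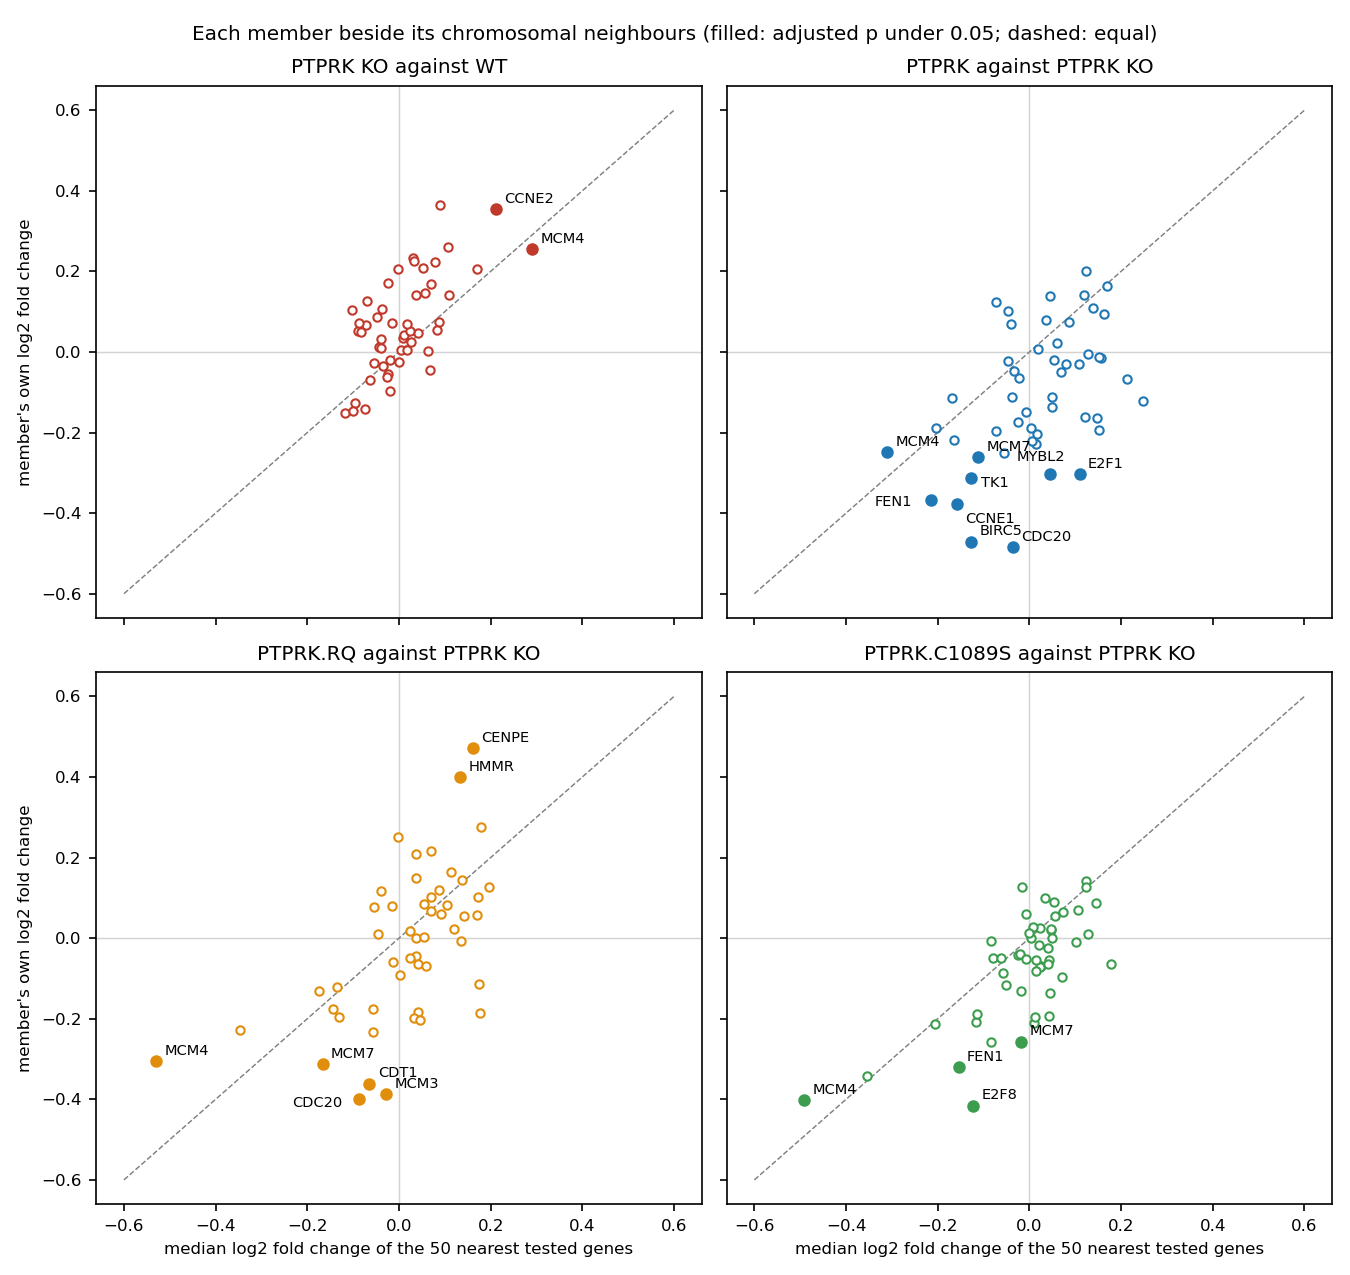
Log2 fold change of each of the 51 members (y axis) against the median log2 fold change of its 50 nearest tested genes (x axis) in 4 comparisons, with called members filled and named and the line of equality dashed. MCM4 lies near or above the line in the negative range, where its neighbours fell as far as it did or further, while CDC20 and BIRC5 lie well below the line.

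The counts were made over exons without regard to strand, so reads of a gene and of a gene overlapping it cannot be told apart where their exons overlap. Overlap was taken here from the whole span of each gene, and overlap of exons was not examined. Of the members, 19 overlapped another annotated gene, 13 of them one with more than 10% of the member's mean count. CCNE2 (chromosome 8) had a mean count of 576 and overlapped INTS8 with 2568 and NDUFAF6 with 553. KIF23 had 3215 and overlapped AC027237.3 with 1489, and GINS2 had 1037 and overlapped GSE1 with 6627. MCM7 (GRCh38 chromosome 7, 100092728 to 100101940, minus strand) had 13670 and overlapped AP4M1 with 2863. CDC20 (chromosome 1, 43358981 to 43363203), E2F1 (chromosome 20, 33675477 to 33686385), MCM3, MCM4, FEN1, BIRC5, CENPE and HMMR were not among the 13.

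Within groups the members varied together from tumour to tumour. After the group mean was subtracted, the median Pearson's r over the 1275 pairs of members was 0.435 across the 25 tumours, 0.419 among the 23 S phase members, 0.487 among the 28 mitosis members and 0.411 between both sets, where the points share libraries and scaling. PLK1, the Polo-like kinase of mitosis, had the highest median r with the other members (0.63), followed by CDC20 (0.611). E2F8 (-0.061), CENPE (-0.016), PLK4 (0.092) and CCNE2 (0.105) moved least with the rest. The same correlations were not computed for other genes, so whether these values are particular to the members was not tested.

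Further genes of the same pathways were counted from lists, again beside 27.8% of all genes called in PTPRK against PTPRK KO. Of 37 other replication genes, 3 rose and 6 fell in that comparison, with RECQL4, a replication helicase, at -0.76 ± 0.13, GINS4 at -0.66 ± 0.13, the origin recognition subunit ORC3 at 0.45 ± 0.09 and the clamp loader subunit RFC3 at 0.37 ± 0.11. RECQL4 and GINS4 had neighbour medians of -0.44 and -0.43. Of 56 other mitosis genes, 0 rose and 12 fell, led by CKS2, a partner of cyclin-dependent kinases, at -0.56 ± 0.13 and TACC3, a spindle protein, at -0.51 ± 0.10. Of 10 tested G1 cyclins and kinases, CCND1 (cyclin D1) rose by 0.27 ± 0.08, and CCND3 (-0.26 ± 0.10) and CDK4 (-0.20 ± 0.06) fell. In PTPRK KO against WT, where 2.64% of all genes were called and 1.08% were higher, 1 replication gene rose, RFC4 at 0.31 ± 0.08, and 3 mitosis genes did, among them PBK (0.59 ± 0.11) and CDCA2 (0.55 ± 0.12), whose neighbour medians were 0.35 and 0.32.

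Genes that restrain the cycle moved in both directions. Of 22 cell cycle brakes, 0 were called in PTPRK KO against WT, beside 2.64% of all genes, and 5 rose and 5 fell in PTPRK against PTPRK KO, beside 13.6% and 14.2%. CDKN2A, which encodes the inhibitor p16 of the cyclin D kinases and ARF, was at 106 to 133 CPM in PTPRK KO and at 58.1 to 71.6 CPM in PTPRK tumours, and fell by 0.92 (SE 0.08, adjusted p = 1.62e-07). CDKN2D, another inhibitor of this family, fell by 0.53 (SE 0.15). SESN1, a stress-induced target of p53, was at 35.5 to 46.4 CPM in PTPRK KO and at 52.5 to 90.8 CPM in PTPRK tumours and rose by 0.85 ± 0.12 (adjusted p = 3.55e-05), and BTG1, an antiproliferative gene, rose by 0.26 ± 0.09. CDKN2A was higher by 0.51 ± 0.08 and SESN1 was at -0.68 ± 0.12 in PTPRK.RQ relative to PTPRK tumours (adjusted p = 0.00102 and 0.00266), so both differed between the forms. Neither was called in PTPRK KO against WT, at 0.12 ± 0.08 and -0.16 ± 0.12.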

How the data were processed

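Poly(A) RNA of 25 HT29 xenograft tumours was sequenced from both ends. The authors trimmed reads with trim_galore, aligned them with HISAT2 (2.1.0 in the submitters' processing notes) separately to GRCh38 and GRCm38, dropped poorly mapped reads, and deposited raw counts per gene over Ensembl exons from SeqMonk, without strand. No step that removes mouse reads from the human counts is stated.

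Groups came from the labels. Of 38179 rows, 51 with a repeated gene identifier were dropped in favour of the copy with more counts. With R 4.3.3 and edgeR 4.0.16 (TMM, filterByExpr, robust quasi-likelihood test, two-sided, Benjamini-Hochberg over all tested genes, threshold 0.05), 1 fit held 19 tumours (18550 genes) and another 24, with PTPRK.C1089S (18758 genes). PTPRK replicate 6, not in the study's table of expression values, entered only the levels per tumour and 1 alternative. Counts of genes without overlap between groups left it out. SE was the log2 fold change over the square root of F, and 95% intervals were ± 1.96 SE. CPM used TMM sizes of all tumours, and log2 CPM added 0.5. Totals were 43727372 to 59355464 counts. The labels do not say that tumours of a group came from separate cultures. The study describes a single line for each genotype it reports, and PTPRK.C1089S tumours are not among them. The p-values therefore measure only the spread between tumours, not between lines.

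Members and lists were chosen with earlier results of these data known. Named in the text are MKI67, TOP2A, PCNA, MCM2, CCNB1 and CCNE1 in every comparison, per comparison the 3 largest rises and 3 largest falls among called members with a mean log2 CPM above 2, members called in 2 or more re-expression groups against PTPRK KO, and the 2 largest called changes per direction of each list of other pathway genes in PTPRK KO against WT and PTPRK against PTPRK KO. The remaining names, including those of genes without overlap, were chosen after their values were seen. Scripts were tested on simulated data. Alternatives were DESeq2 1.42.0, its size factors in edgeR, no filter, a replicate block, all 25 tumours, the compared pair only, and leaving out each tumour.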

Additional observations from a re-analysis of the deposited data

Results flagged for a closer look

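Of 165 sets of tumours (25 genes and 8 gene lists, in each of the 5 groups), 12 had 1 tumour standing apart by Dixon's test, where chance gives about 1 in 20. PTPRK.RQ replicate 3 was highest for HMMR (60.8 CPM, next 48.7 CPM), KIF23 (77.8 CPM, next 64.1 CPM) and TOP2A (325 CPM, next 231 CPM), and PTPRK.RQ replicate 2 for BIRC5 (83.6 CPM, next 58.2 CPM). PTPRK.C1089S replicate 4 was highest for CENPE (40.7 CPM, next 23.3 CPM) and TOP2A (292 CPM, next 220 CPM) and lowest for MCM7 (234 CPM, next 258 CPM). WT replicate 3 was highest for MCM4 (186 CPM, next 167 CPM) and PCNA (135 CPM, next 117 CPM). E2F8 was lowest in PTPRK replicate 5 (9.89 CPM, next 14.2 CPM), and MKI67 was lowest in PTPRK.C1089S replicate 1 (164 CPM, next 191 CPM). The mean centred log2 CPM of the G1 to S regulators was lowest in PTPRK.C1089S replicate 3 (-0.22, next -0.08).

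The re-expressed forms differed by the test of the difference itself for E2F1, at 0.37 in PTPRK.RQ against PTPRK and 0.32 in PTPRK.C1089S against PTPRK, and for UBE2C, at 0.25 in PTPRK.C1089S against PTPRK (log2 fold changes).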

How the results depend on the processing

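The counts of called members in PTPRK, PTPRK.RQ and PTPRK.C1089S against PTPRK KO (9, 7 and 4) and in PTPRK and PTPRK.RQ against WT (17 and 13) stayed within 1.5 times their values under every alternative that kept all tumours, and the other 5 counts did not. The share of all genes called under each alternative follows its count in brackets. In PTPRK KO against WT (2 called) the count was 0 with no filter (1.42%) and with all 25 tumours (2%), 1 with the replicate block (3.01%) and 4 with only the compared pair (3.65%). In PTPRK.RQ against PTPRK (1 called) it was 2 with DESeq2 (5.87%), 0 with the block (3.82%) and 0 with the pair (2.33%). In PTPRK.C1089S against PTPRK (2 called) it was 1 with no filter (4.17%) and 1 with the pair (4.67%). Against PTPRK.RQ (0 called) it was 2 with DESeq2 (8.31%) and 1 with the block (4.21%). Against WT (5 called) it was 3 with no filter (8.04%) and 3 with the pair (14.4%).

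Leaving out 1 tumour at a time gave 0 to 2 called in PTPRK KO against WT, beside 1.46 to 2.49% of all genes. Against PTPRK KO it gave 5 to 12 in PTPRK (20 to 31.5% of all genes), 5 to 10 in PTPRK.RQ (15.5 to 25.8%) and 2 to 6 in PTPRK.C1089S (12.3 to 17.1%). Between the forms it gave 0 to 2 in PTPRK.RQ against PTPRK (1.94 to 4.45%). In PTPRK.C1089S it gave 0 to 11 against PTPRK (2.75 to 23.4%) and 0 to 6 against PTPRK.RQ (1.82 to 13.3%). Against WT it gave 8 to 20 in PTPRK (23.9 to 36.3%), 6 to 16 in PTPRK.RQ (19.3 to 32.3%) and 0 to 6 in PTPRK.C1089S (9.32 to 14.7%). The cause of these moves was not tested.

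No called member changed sign under any alternative, and members that were not called and lay near 0 did. With the block MKI67 was at 0.0046 in PTPRK against PTPRK KO, and PCNA at -0.0134 in PTPRK.RQ against PTPRK KO and -0.0015 against WT. PCNA in PTPRK.RQ against PTPRK KO was at -0.0055 with no filter and -0.0039 with the pair. Without 1 tumour, log2 fold changes crossed 0 as follows. MKI67 ran from -0.17 to 0.031 in PTPRK KO against WT, from -0.097 to 0.11 in PTPRK against PTPRK KO, from -0.15 to 0.011 in PTPRK against WT and from -0.16 to 0.047 in PTPRK.C1089S against PTPRK KO. TOP2A ran from -0.0115 to 0.10 in PTPRK KO against WT, from -0.043 to 0.18 in PTPRK.RQ against PTPRK KO, from -0.16 to 0.052 in PTPRK.RQ against PTPRK, and in PTPRK.C1089S from -0.085 to 0.0745 against PTPRK KO, from -0.19 to 0.070 against PTPRK.RQ and from -0.0405 to 0.11 against WT. PCNA ran from -0.018 to 0.057 in PTPRK KO against WT, from -0.051 to 0.0099 in PTPRK and -0.026 to 0.037 in PTPRK.RQ against PTPRK KO, from -0.0134 to 0.0535 in PTPRK.RQ against PTPRK, from -0.046 to 0.032 in PTPRK and -0.021 to 0.054 in PTPRK.RQ against WT, and in PTPRK.C1089S from -0.018 to 0.052 against PTPRK KO, from -0.027 to 0.0585 against PTPRK.RQ and from -0.0084 to 0.088 against WT. MCM2 ran from -0.094 to 0.042 in PTPRK KO against WT, from -0.037 to 0.0905 in PTPRK.RQ against PTPRK, and in PTPRK.C1089S from -0.032 to 0.077 against PTPRK and from -0.040 to 0.060 against PTPRK.RQ. CCNB1 ran from -0.0505 to 0.099 in PTPRK.RQ against PTPRK KO, from -0.083 to 0.045 in PTPRK against WT, and in PTPRK.C1089S from -0.10 to 0.034 against PTPRK KO and from -0.12 to 0.022 against PTPRK.RQ. CCNE1 ran from -0.13 to 0.062 in PTPRK.RQ against WT and from -0.037 to 0.096 in PTPRK.C1089S against PTPRK.

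Over the 19 tumours without PTPRK.C1089S, the median correlation of deviations from the group means was 0.122 over 27 pairs with the same replicate number (14 over 0.1) and -0.039 over 108 pairs with different numbers (28 over 0.1). Over the 24 tumours it was 0.033 over 46 and -0.019 over 184 pairs. Of the 19 and 24 tumours, 4 and 3 correlated best with their own number. Not every pair passed 0.1 and no label ties the numbers to a shared animal or day, so the replicate block was an alternative only.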
